A study of Homo sapiens with 54 samples.

Results

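The comparison set the transcriptome of human medium spiny neuron (hMSN)-like cells 1 h after a single 1 mM dopamine exposure against that 24 h after one. The libraries were chosen by their labels, the 3 of Acute 1 h and the 3 of Acute 24 h, which makes 6 of the 54 samples of the series, of which 53 had a processed file. The cells were differentiated with activin A from H9 (WA09), an established human embryonic stem cell line, and RNA-seq gave read counts and TPM per gene. Per the labels both groups were treated with dopamine for 1 h and RNA was taken 1 h or 24 h later, while the study counts these times from the dose, so whether the 1 h of RNA sampling ran from the start or the end of the exposure is not settled here. The methods of the study give ascorbic acid as the solvent of dopamine. The 3 PBS libraries of the same experiment were used as the control, and their labels name PBS alone.

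Dopamine acts on striatal neurons through G protein-coupled receptors that raise or lower cyclic AMP, and the signal reaches the nucleus through CREB and through the ERK and SRF pathways. Immediate early genes, among them the FOS, EGR and NR4A families, are transcribed within minutes without new protein synthesis and their short-lived mRNAs decay within hours. Their products are transcription factors, feedback phosphatases, secreted factors and synaptic proteins.

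One library stood apart from all others, and it had already been singled out in earlier results of these data. Acute 24 h replicate 1 had rank correlations of 0.933 to 0.944 with the other 14 libraries of the 1 mM experiment, against 0.969 to 0.995 among those 14. In it, 2473 genes stood more than 2-fold above both other Acute 24 h libraries and 1542 at under 0.5 of both, against 74 to 109 and 89 to 220 genes for the other 5 libraries, each set against its own group. Mitochondrially encoded genes took 0.83% of its exon reads and 2.49% to 2.61% in the other 5. The summed TPM of 6 neuronal markers was 1634 in it, 2675 to 2904 in the other Acute 24 h libraries and 2858 to 3160 at Acute 1 h. Its part in each result was not tested beyond leaving it out, so the values below are given with all libraries and without it, which leaves 2 libraries at 24 h.

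Exon reads per library ran from 13707122 to 21514125, and all 14 striatal markers were tested, of which PDYN stayed under 1 TPM in all 6 libraries. PPP1R1B, which encodes DARPP-32, lay at 12.8 to 14.9 TPM at Acute 1 h and 10.996 to 14.8 TPM at Acute 24 h. Of the defining markers of other cells, AIF1, P2RY12 and CSF1R of microglia, PECAM1 and CDH5 of endothelium, and POU5F1, NANOG and LIN28A of pluripotent cells were under 1 TPM in all 6. CLDN5, the other endothelial marker, lay at 9.16 to 11.5 TPM at Acute 1 h and 1.37 to 9.73 TPM at Acute 24 h, and the 4 microglial markers summed to 3.4 TPM in replicate 1 and at most 1.016 TPM in the other 5. The 6 progenitor markers summed to 2605 to 2928 TPM at Acute 1 h and 2523 to 2740 TPM at Acute 24 h, and 5 glutamatergic markers to 515 to 641 TPM at Acute 1 h, 576 to 810 TPM at Acute 24 h and 1327 to 1387 TPM in PBS. At Acute 1 h the 14 striatal markers summed to 127.3 to 137.6 TPM. Astrocyte markers summed to 106.1 to 111.2, oligodendrocyte markers to 96.51 to 110.3 and mesenchymal markers to 86.63 to 88.78 TPM. At Acute 24 h these sums were 130.1 to 199.6, 118.2 to 140.3, 61.98 to 133.9 and 61.28 to 111.4 TPM. Of 4 interneuron markers, NKX2-1 and LHX6 were under 1 TPM in all 6, and the 4 summed to 28.75 to 38.11 TPM at Acute 1 h. Fewer cells of a type and less RNA per cell cannot be told apart in bulk RNA. The 24 h cells had also spent a further day in culture, so time after dopamine and time in culture cannot be told apart.

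Most immediate early transcription factor genes were higher at 1 h than in replicates 2 and 3 of 24 h. Promoter sequence is shown for 3 of them, chosen as well-known members of the FOS and EGR families. The 250 bases before the RefSeq start (GRCh38.p14) are given 5′ to 3′ on the gene's strand for FOS (chr14:75278578-75278827, plus strand), EGR1 (chr5:138465229-138465478, plus strand) and FOSB (chr19:45467746-45467995, plus strand), with capitals marking CArG boxes, the sites SRF is known to bind, and the TATA motif TATAAA.
FOS: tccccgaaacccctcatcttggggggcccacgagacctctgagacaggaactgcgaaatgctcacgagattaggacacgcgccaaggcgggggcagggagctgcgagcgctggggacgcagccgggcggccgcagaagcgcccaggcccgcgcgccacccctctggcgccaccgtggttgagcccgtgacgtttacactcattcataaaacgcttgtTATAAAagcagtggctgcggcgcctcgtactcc
EGR1: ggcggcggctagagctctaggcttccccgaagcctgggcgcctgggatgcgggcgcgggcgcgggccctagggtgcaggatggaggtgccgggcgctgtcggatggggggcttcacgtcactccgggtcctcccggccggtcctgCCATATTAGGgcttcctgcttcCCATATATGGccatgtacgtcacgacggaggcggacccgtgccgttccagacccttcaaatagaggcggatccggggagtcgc
FOSB: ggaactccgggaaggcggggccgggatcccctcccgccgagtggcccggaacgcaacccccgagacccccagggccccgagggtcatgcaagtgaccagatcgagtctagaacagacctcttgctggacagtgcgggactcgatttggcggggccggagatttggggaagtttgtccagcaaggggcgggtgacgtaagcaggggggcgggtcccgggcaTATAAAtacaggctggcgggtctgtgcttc
The window of EGR1 held 2 CArG boxes, and those of FOS and FOSB held a TATA motif and no CArG box. The windows of NR4A3 and CCN2 were also searched. Neither held a CArG box, and that of CCN2 alone held a TATA motif. Bases farther upstream than 250 were not searched, so the absence of a motif holds for this window alone. Searched on both strands, a CArG box was found in 1.44% of all 27305 RefSeq promoters of that length, in 1.55% of the 12608 matched genes tested and in 6.02% of the 133 matched of 187 DEGs higher at Acute 1 h without replicate 1. The TATA motif was found in 13.05% of all promoters, 8.92% of those of genes tested and 24.81% of those of these DEGs. In the 28 matched of 70 DEGs lower at Acute 1 h, 1 gene (3.57%) held a CArG box and 7 (25.0%) a TATA motif. With all libraries, 6.33% of the 79 matched of 112 higher DEGs held a CArG box and 31.65% a TATA motif. In the 43 matched of 69 lower DEGs these shares were 4.65% and 18.6%, on 2 and 8 genes. The CRE motif TGACGTCA was found in 2.03% of all promoters, 3.18% of genes tested and 3.76% of the higher DEGs without replicate 1. For the AP-1 motif TGANTCA the shares were 8.06%, 6.42% and 3.76% in the same order. In the higher DEGs with all libraries, CRE was found in 5.06% and AP-1 in 7.59%.

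FOSB, a partner of JUN proteins in the AP-1 factor, had 76.5, 54.0 and 55.4 TPM at Acute 1 h and 2.23, 0.761 and 0.572 TPM at Acute 24 h. Every 1 h library was above every 24 h library, and PBS lay at 0.332 to 0.988 TPM. Its log2(fold change) of 1 h over 24 h was 6.01 ± 0.39 (SE, adjusted p = 9.56e-06) and 6.63 ± 0.29 without replicate 1 (adjusted p = 1.14e-09). FOS itself had 246, 223 and 262 TPM at Acute 1 h and 67.3, 15.7 and 9.72 TPM at Acute 24 h. The groups did not overlap, and replicate 1 was the highest of the 24 h libraries, above the PBS range of 12.6 to 19.1 TPM. The log2(fold change) was 3.26 ± 0.47 (adjusted p = 0.00339) with all libraries and 4.36 ± 0.18 (adjusted p = 5.61e-10) without replicate 1. JUNB, another AP-1 subunit, had 208, 211 and 230 TPM against 117, 28.6 and 22.8 TPM. It rose by a log2(fold change) of 2.22 (adjusted p = 0.0135) and 3.17 (adjusted p = 5.61e-10) in the 2 fits.

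The zinc finger genes of the EGR family were high at 1 h, and EGR1 was high in replicate 1 of 24 h as well. EGR2, known for its role in myelinating glia and in activated neurons, had 39.2, 34.7 and 37.4 TPM at Acute 1 h and 11.4, 0.630 and 0.323 TPM at Acute 24 h. EGR4 had 13.4, 12.2 and 13.2 TPM against 1.98, 0.0890 and 0.335 TPM, the last 2 on 1 and 4 exon reads. Both groups of both genes were separate, with replicate 1 the highest of the 24 h libraries. EGR1 had 532, 483 and 551 TPM at Acute 1 h and 696, 27.8 and 25.8 TPM at Acute 24 h. Replicate 1 was thus above all 3 libraries of Acute 1 h, while the other 2 lay slightly above the PBS range of 13.9 to 19.2 TPM. The log2(fold change) of EGR1 was 1.38 ± 0.83 with all libraries, which did not pass (adjusted p = 0.278), and 4.38 ± 0.20 without replicate 1 (adjusted p = 1.93e-09). JUN turned direction with that library, having 342, 302 and 319 TPM against 2050, 164 and 197 TPM, a log2(fold change) of -1.03 (adjusted p = 0.288) with it and 0.93 (adjusted p = 0.00318) without it.

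**Figure D1:**
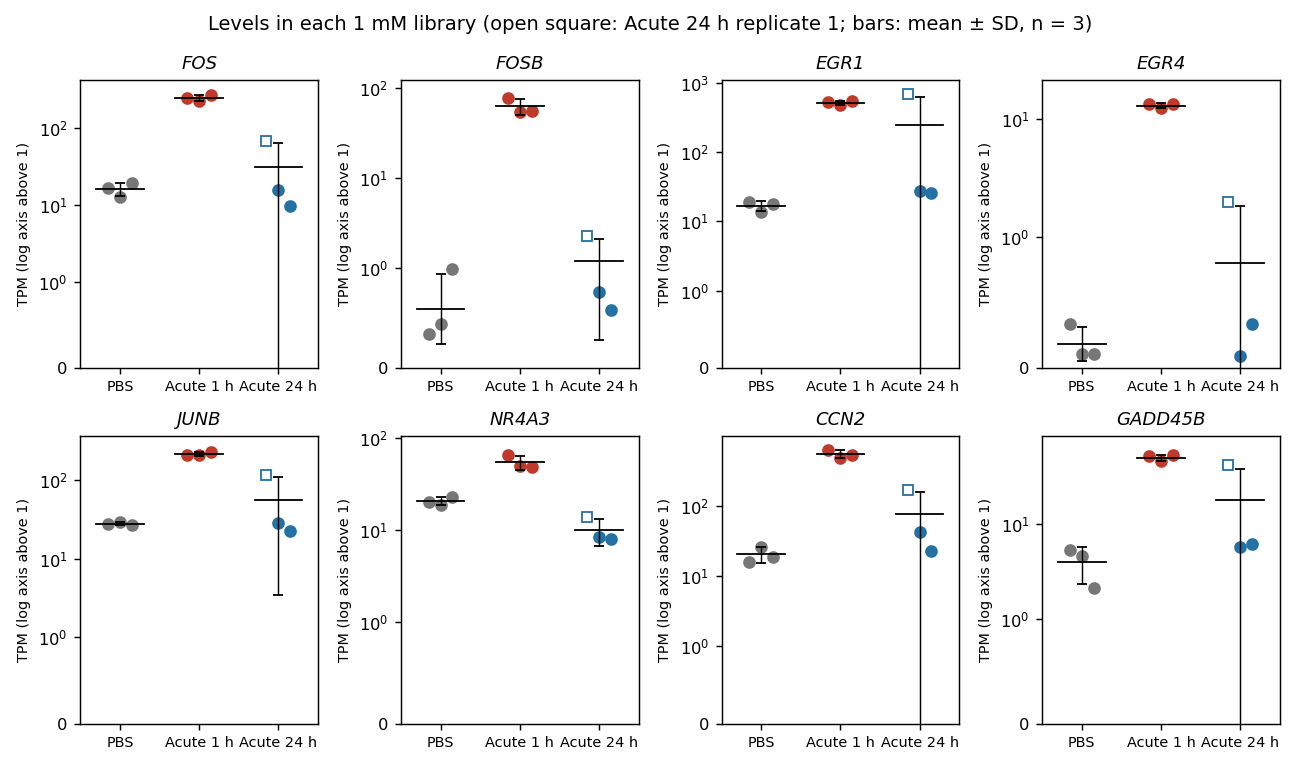
TPM (log axis above 1) of 8 genes in each PBS, Acute 1 h and Acute 24 h library at 1 mM, with the open square for Acute 24 h replicate 1 and bars for mean ± SD (n = 3). Replicate 1 lies above the other 24 h libraries in all 8 genes, and for EGR1 at 696 TPM it lies above Acute 1 h.

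NR4A3, an orphan nuclear receptor, had 65.5, 50.0 and 48.0 TPM at Acute 1 h and 13.8, 8.26 and 7.86 TPM at Acute 24 h, with PBS at 18.7 to 22.8 TPM. It was above PBS at 1 h, with a log2(fold change) of 1.47 (adjusted p = 0.000246), and below PBS at 24 h without replicate 1, at -1.40 (adjusted p = 0.000147). Its log2(fold change) of 1 h over 24 h was 2.66 ± 0.18 (adjusted p = 9.74e-06) and 2.86 without replicate 1. NR4A1 had 71.5, 44.8 and 50.7 TPM against 29.6, 10.6 and 10.7 TPM and rose in both fits.

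Over the whole list of 29 immediate early transcription factor genes, 11 were higher at Acute 1 h and 0 lower with all libraries (adjusted p under 0.05), where 1.38% of the 17804 genes tested were higher. Without replicate 1, 24 were higher and 0 lower, where 4.08% of 18178 genes were higher. The median log2(fold change) was 0.99 and 1.65, beside -0.0057 and 0.0066 over all genes tested. Against PBS the median was 1.47 at 1 h, 0.76 at 24 h and -0.04 at 24 h without replicate 1, these comparisons sharing libraries. In the last of them 4 members were above and 5 below PBS, where 11.1% of all genes were above and 11.1% below. FOSL1, JUND, MYC, ETS2 and BHLHE40 were the members that did not pass without replicate 1.

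**Figure D2:**
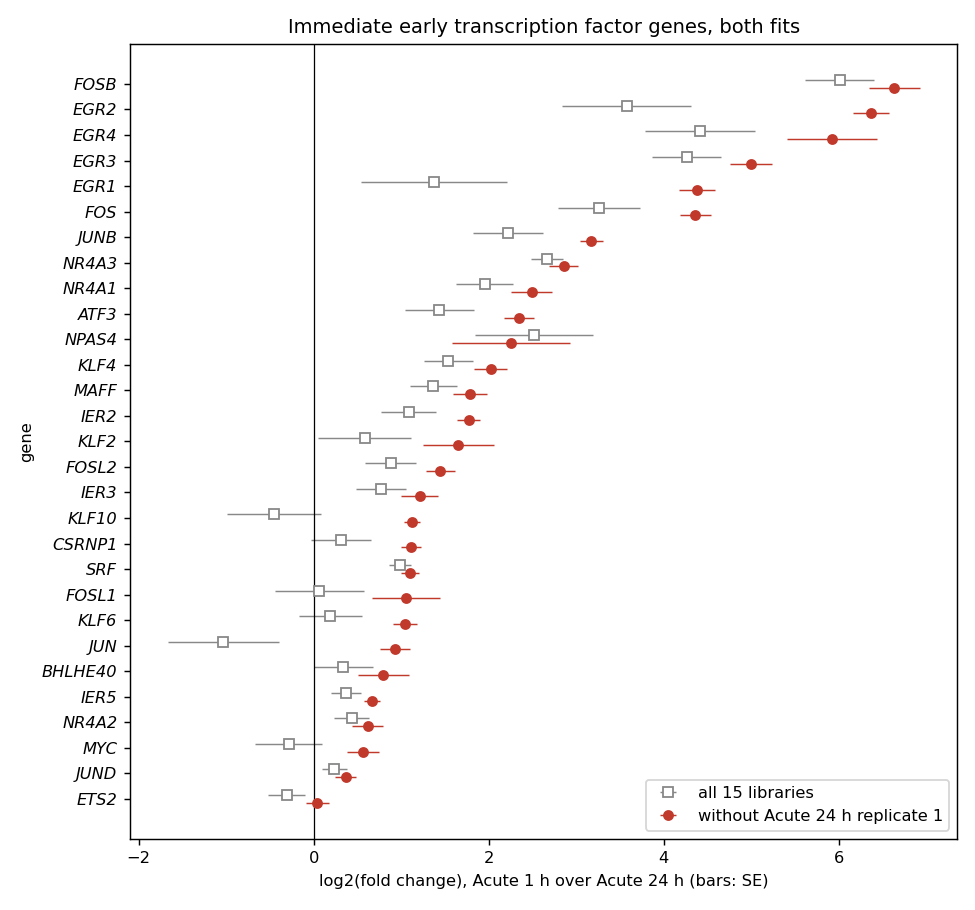
log2(fold change) of Acute 1 h over Acute 24 h with SE for the 29 immediate early transcription factor genes, from all 15 libraries of the 1 mM experiment (open squares) and without Acute 24 h replicate 1 (filled circles). Without it, 29 of 29 lie above 0, and EGR1 moves from 1.38 to 4.38.

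Across all genes, 181 DEGs (adjusted p under 0.05, a change of 1 log2 unit or more, and 1 TPM or more in the higher group mean) separated 1 h from 24 h with all libraries, 1.02% of those tested, 112 higher and 69 lower at 1 h. Without replicate 1 there were 257 DEGs, 1.41% of those tested, 187 higher and 70 lower. The 2 sets shared 135 genes, 74.6% of the first and 52.5% of the second, all in the same direction. The count with all libraries rested on the spread shared with the other groups of the experiment: fitted on the 6 libraries alone, it was 4 (FOSB, NR4A3, RPE65 and THBS1, with 2009 genes at an unadjusted p under 0.05), whereas without replicate 1 the same restriction gave 292.

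Several genes for secreted and matricellular proteins followed the same course. CCN2, a matricellular growth factor, had 616, 483 and 535 TPM at Acute 1 h and 167, 41.4 and 22.8 TPM at Acute 24 h, with PBS at 15.9 to 26.0 TPM. The log2(fold change) of CCN2 was 3.10 ± 0.51 (adjusted p = 0.00845) and 4.19 ± 0.29 (adjusted p = 1.67e-07) without replicate 1. CCN1, of the same family, had 354, 253 and 307 TPM against 96.9, 27.8 and 17.5 TPM. THBS1, which encodes thrombospondin 1, had 62.6, 42.3 and 47.5 TPM against 14.9, 13.2 and 11.6 TPM, and in this gene replicate 1 lay close to the other 24 h libraries. Its log2(fold change) was 2.13 in both fits (adjusted p = 0.000194 and 1.68e-05). THBS1 belongs to a list of 30 matrix genes, which mostly did not pass. Of these, 1 was higher with all libraries and 2 without replicate 1, with 0 lower, beside 1.38% and 4.08% of all genes higher. The median of that list was 0.35 and 0.12. Of 21 growth factor and cytokine genes, 16 were tested with all libraries, 4 were higher and 0 lower at 1 h, and without replicate 1 the numbers were 17, 7 and 0, where 1.38% and 4.08% of all genes were higher. BMP2 and EDN1, which encode a bone morphogenetic protein and endothelin 1, were the others with all libraries, at 1.17 and 1.48 (adjusted p = 0.00647 and 0.0226).

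Synaptic and cyclic AMP-related genes were higher at 1 h in smaller numbers. ARC, a regulator of AMPA receptor traffic, had 78.6, 69.5 and 69.7 TPM at Acute 1 h and 40.8, 6.85 and 8.96 TPM at Acute 24 h. The 24 h libraries without replicate 1 lay below the PBS range of 11.2 to 13.4 TPM, with a log2(fold change) to PBS of -0.70 (adjusted p = 0.0109). Its 1 h over 24 h value was 2.23 (adjusted p = 0.0198) and 3.30 without replicate 1 (adjusted p = 3.51e-09). Of 14 activity-regulated synaptic and secreted genes, 3 were higher with all libraries and 5 without replicate 1. The share of all genes higher was 1.38% and 4.08%. Of 17 cyclic AMP and CREB target genes, 4 and 7 were higher, among them SIK1, a kinase that restrains CREB coactivators, at 1.31 and 1.66, whose reads could be shared with its near copy SIK1B. ADCYAP1, the gene of the neuropeptide PACAP, had 13.3, 13.0 and 13.5 TPM against 4.06, 5.78 and 5.07 TPM and rose by 1.57 (adjusted p = 0.0028). No member of either list was lower.

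Several feedback genes of ERK signaling and regulators of mRNA stability passed only without replicate 1. DUSP1, a phosphatase of MAP kinases, had 178, 147 and 156 TPM against 110, 50.0 and 55.0 TPM and rose in both fits (adjusted p = 0.00224 and 1.23e-08). DUSP10, of the same family, had 41.7, 36.8 and 41.3 TPM against 123, 16.7 and 16.2 TPM. Its log2(fold change) was -0.09 (adjusted p = 0.921) with all libraries and 1.38 (adjusted p = 3.93e-06) without replicate 1. Of the 16 ERK feedback genes, 2 were higher with all libraries and 7 without replicate 1, beside 1.38% and 4.08% of all genes. ZFP36, which binds AU-rich mRNAs and speeds their decay, had 57.0, 63.6 and 64.5 TPM against 37.5, 4.81 and 3.42 TPM, and rose by 2.34 (adjusted p = 0.0478) and 4.01 (adjusted p = 8.69e-08). TENT5B, a noncanonical poly(A) polymerase, had 40.8, 36.5 and 38.0 TPM against 16.6, 14.2 and 6.84 TPM, with PBS at 2.51 to 3.98 TPM. It was also above PBS at 24 h without replicate 1, by a log2(fold change) of 1.55 (adjusted p = 0.00263). Of the 11 regulators of mRNA tails and stability, 3 were higher and 1 lower with all libraries, beside 1.38% and 2.11% of all genes. Without replicate 1, 7 were higher and 1 lower, beside 4.08% and 5.22% of all genes. The lower one in both was TOB2, an antiproliferative partner of the deadenylase complex, with 46.0, 38.9 and 40.0 TPM against 77.4, 68.7 and 68.9 TPM (-0.60, adjusted p = 0.0176, and -0.62, adjusted p = 0.00262). GADD45B, a stress-induced gene linked to DNA demethylation, had 52.2, 46.6 and 53.8 TPM against 42.1, 5.74 and 6.14 TPM, which passed only without replicate 1 (1.80, adjusted p = 0.0707, and 3.19, adjusted p = 4.79e-07). DUSP14 and MMP1 passed in neither fit (adjusted p = 0.81 and 0.576 with all libraries, 0.228 and 0.456 without replicate 1).

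Targets of SRF on actin and of TGF-beta and BMP signaling were in part above PBS at 24 h as well as at 1 h. ACTA2, smooth muscle actin, had 204, 147 and 157 TPM at Acute 1 h, 83.1, 123 and 88.3 TPM at Acute 24 h and 18.6 to 24.1 TPM in PBS. Its log2(fold change) of 1 h over 24 h was 0.95 (adjusted p = 0.0245), while that of 24 h over PBS was 2.26 without replicate 1 (adjusted p = 2.21e-05). ID3, an inhibitor of basic helix-loop-helix factors, had 216, 202 and 210 TPM, 189, 120 and 87.5 TPM and 47.3 to 52.3 TPM in the same order. Of 16 SRF and actin genes, 3 were higher at 1 h than at 24 h with all libraries and 8 without replicate 1, and of 15 TGF-beta and BMP targets 2 and 9, with 0 lower in either, beside 1.38% and 4.08% of all genes higher. Against PBS at 24 h, 7 of the 16 and 7 of the 15 were higher with all libraries, where 8.38% of all genes were, and 10 and 8 without replicate 1, where 11.1% were, with 1 TGF-beta and BMP target lower. Introns took 12.3% to 13.2% of reads at Acute 1 h, 12.5% to 15.9% at Acute 24 h and 19.5% to 21.8% in PBS. The part of this difference in the comparisons with PBS was not tested.

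Metal-responsive genes were a further group. The bases before the start are given as above for the metallothionein genes MT1X (chr16:56682220-56682469, plus strand) and MT2A (chr16:56608334-56608583, plus strand), with capitals on the metal response element, searched as TGCACNC or TGCGCNC on both strands, and on TATAAA.
MT1X: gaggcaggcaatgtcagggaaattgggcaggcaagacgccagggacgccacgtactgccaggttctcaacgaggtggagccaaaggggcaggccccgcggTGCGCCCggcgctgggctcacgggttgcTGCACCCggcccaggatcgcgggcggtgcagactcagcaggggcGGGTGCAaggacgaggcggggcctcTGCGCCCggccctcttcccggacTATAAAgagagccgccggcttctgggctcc
MT2A: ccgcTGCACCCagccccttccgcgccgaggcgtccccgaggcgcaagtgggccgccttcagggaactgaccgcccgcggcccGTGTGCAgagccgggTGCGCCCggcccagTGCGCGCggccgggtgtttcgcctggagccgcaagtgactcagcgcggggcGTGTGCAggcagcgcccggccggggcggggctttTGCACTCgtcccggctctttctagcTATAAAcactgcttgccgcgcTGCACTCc
The first held 4 and the second 7 matches to the metal response element, a motif also found in 28.54% of all promoters and in 39.06% of those of genes tested. Among matched DEGs higher at Acute 1 h, it was found in 40.51% with all libraries and 36.09% without replicate 1. MT1X had 21.2, 10.9 and 14.9 TPM at Acute 1 h and 0.863, 2.18 and 3.32 TPM at Acute 24 h, with PBS at 2.03 to 4.81 TPM. For MT1X the log2(fold change) was 2.94 ± 0.50 (adjusted p = 0.0109) and 2.60 ± 0.48 (adjusted p = 0.00368) without replicate 1, and its reads could be shared with near-identical metallothionein genes. MT2A had 24.7, 30.4 and 29.0 TPM against 9.17, 19.6 and 11.7 TPM (adjusted p = 0.0312 and 0.0148). SLC30A1, a zinc exporter, had 82.3, 77.0 and 78.3 TPM against 145, 31.1 and 26.8 TPM and passed only without replicate 1 (adjusted p = 0.427 and 1.67e-07). Of the 10 listed genes 6 were tested, 2 were higher with all libraries and 3 without replicate 1, beside 1.38% and 4.08% of all genes.

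Fewer of the genes named here were lower at 1 h, but at the adjusted p alone more genes were lower than higher. With all libraries 376 were lower and 245 higher, and without replicate 1 948 and 742. CLK1 and CLK4, kinases that phosphorylate SR splicing factors, were below both PBS and Acute 24 h. CLK1 had 48.1, 50.0 and 51.0 TPM at Acute 1 h, 176, 116 and 120 TPM at Acute 24 h and 152 to 157 TPM in PBS. For CLK1 the log2(fold change) was -1.27 ± 0.13 (adjusted p = 0.000213) and -1.15 ± 0.10 (adjusted p = 4.41e-06) without replicate 1. CLK4 had 12.5, 11.4 and 13.5 TPM against 55.1, 24.4 and 23.3 TPM (adjusted p = 0.0117 and 3.06e-05). Of 15 CLK and SR splicing genes 3 were lower with all libraries and 5 without replicate 1, with 0 higher, where 2.11% and 5.22% of all genes were lower. HES5, a Notch target, had 42.7, 42.4 and 34.1 TPM against 175, 61.9 and 75.4 TPM and fell by 1.16 (adjusted p = 0.0409) and 0.69 (adjusted p = 0.0178). Of the 13 Notch genes tested, HES5 alone was lower in either fit, beside 2.11% and 5.22% of all genes. With all libraries 0 were higher, and 2 were without replicate 1, beside 1.38% and 4.08% of all genes. The median of the Notch list was 0.05 and 0.17.

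The DEGs with the largest decreases were low in level, and in many of them replicate 1 was far above the other 24 h libraries. TLR9, an endosomal receptor of DNA, had 0.328, 0 and 0 TPM at Acute 1 h, on 5, 0 and 0 exon reads, and 4.50, 1.26 and 1.59 TPM at Acute 24 h. PLAC8L1 had 0.393, 0.623 and 0.582 TPM against 23.4, 2.94 and 2.67 TPM, a log2(fold change) of -3.84 with all libraries and -2.28 without replicate 1. NEB, the gene of the muscle protein nebulin, had 0.199, 0.138 and 0.231 TPM against 3.11, 0.429 and 0.396 TPM. Of the 69 DEGs lower at 1 h, 58 had replicate 1 above both other 24 h libraries, against 50 of the 112 higher DEGs and 54.9% of all genes tested.

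**Figure D3:**
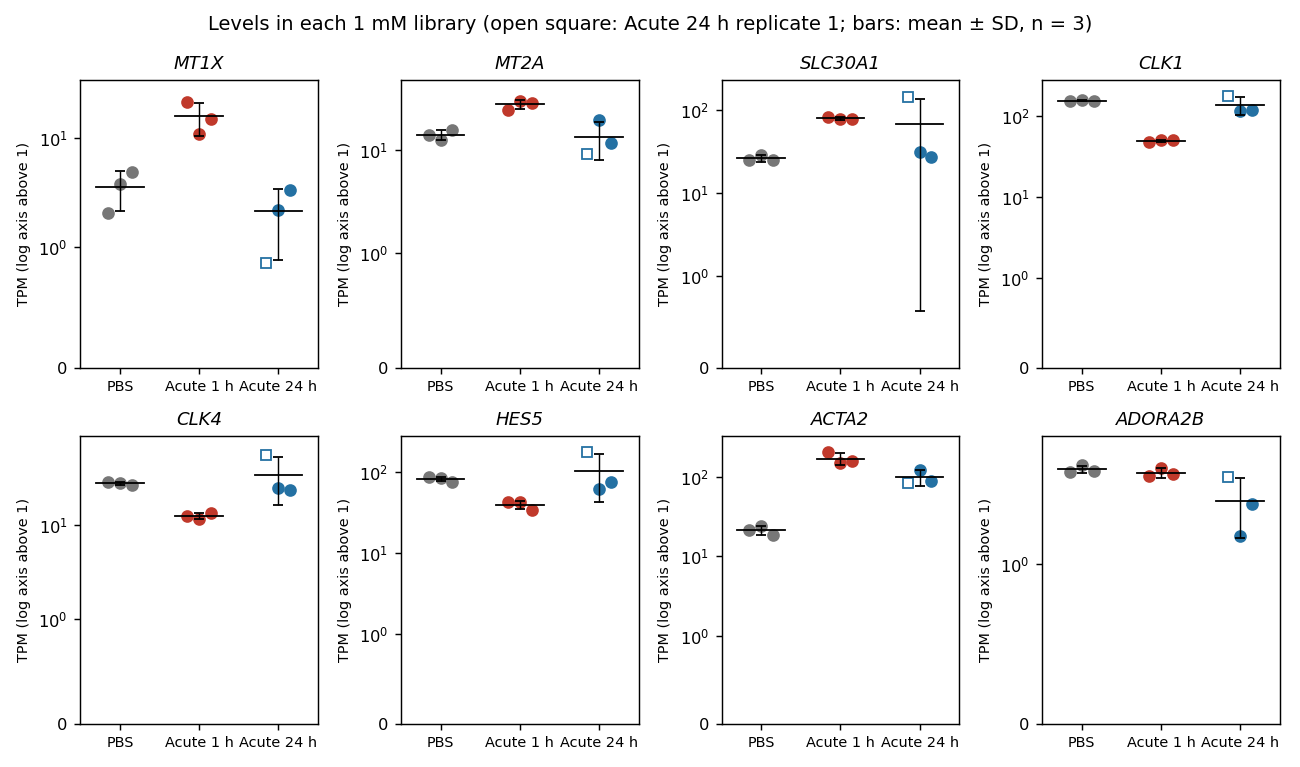
TPM (log axis above 1) of 8 further genes in each PBS, Acute 1 h and Acute 24 h library at 1 mM, with the open square for Acute 24 h replicate 1 and bars for mean ± SD (n = 3). CLK1 lies at 48.1 to 51.0 TPM at Acute 1 h, below every other library shown, and SLC30A1 is highest in replicate 1 at 145 TPM.

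Hypoxia-inducible and glycolytic genes were low at both times. Of 31 HIF targets, 26 were below PBS at 1 h, where 7.94% of all genes were lower, 27 at 24 h with all libraries, where 7.09% were, and 31 at 24 h without replicate 1, where 11.1% were. VEGFA, the vascular growth factor, had 34.7, 20.0 and 18.9 TPM at Acute 1 h, 56.5, 15.8 and 32.5 TPM at Acute 24 h and 198, 178 and 114 TPM in PBS. CA9, a carbonic anhydrase, had 3.63, 2.44 and 2.28 TPM, 2.29, 1.58 and 4.32 TPM and 29.98, 53.8 and 20.6 TPM in the same order. Between the times the list had a median log2(fold change) of 0.23 and 0.27 without replicate 1, and VLDLR alone passed, lower at 1 h in both fits (adjusted p = 0.0445 and 0.0223). Of 20 glycolysis genes, 15 were below PBS at 1 h and 18 at 24 h without replicate 1, and 2 (TPI1 and LDHB) were higher at 1 h than at 24 h with all libraries and 3 (also PFKM) without replicate 1, where 1.38% and 4.08% of all genes were higher. In the same comparisons with PBS the summed glutamatergic markers lay below the PBS range, as given above, and the intron share of reads was 12.3% to 13.2% at Acute 1 h and 12.5% to 15.9% at Acute 24 h against 19.5% to 21.8% in PBS, and the part of either in these results was not tested. Whether the PBS libraries held the ascorbic acid is not given in the sources used here.

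Of the 8 dopamine and adenosine receptor genes, ADORA2B alone passed between the times, and only without replicate 1, where 4.08% of all genes were higher and 5.22% lower, with 4.09, 4.70 and 4.22 TPM against 1.58 and 2.63 TPM (1.13, adjusted p = 0.0219). DRD1 had 2.08, 1.27 and 1.96 TPM against 5.16, 0.786 and 0.887 TPM and DRD2 3.64, 3.08 and 3.29 TPM against 6.60, 3.80 and 4.92 TPM, neither of which passed.

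**Figure D4:**
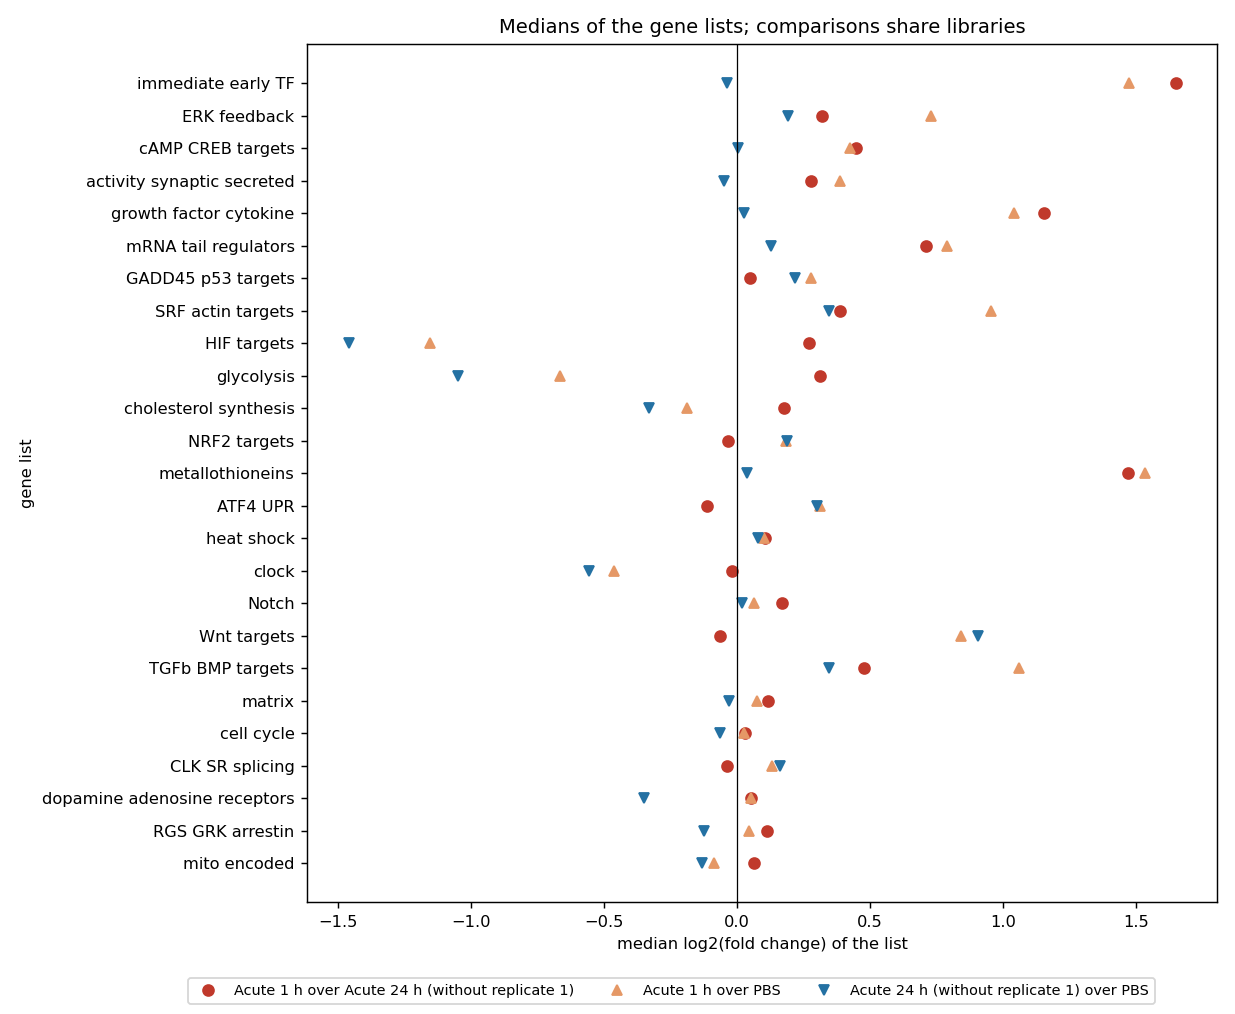
Median log2(fold change) of each gene list for Acute 1 h over Acute 24 h without replicate 1, Acute 1 h over PBS, and Acute 24 h without replicate 1 over PBS, which share libraries. Immediate early genes lie at 1.47 against PBS at 1 h and -0.04 at 24 h, and HIF targets at -1.15 and -1.46.

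Reads on introns, which come largely from unspliced RNA, moved with the exon reads of the higher genes. Without replicate 1, 131 of the 187 DEGs higher at 1 h were tested in introns, and 77 passed in the same direction and 0 in the opposite, where 3.83% of 24434 genes were higher. Their median log2(fold change) was 1.39 in introns and 1.42 in exons. Of the 70 lower DEGs 47 were tested and 14 passed in the same direction, where 3.2% were lower, with medians of -0.65 in introns and -1.25 in exons. The share of reads on introns was 12.9% ± 0.5 (SD, n = 3) at Acute 1 h and 13.97% ± 1.72 (SD, n = 3) at Acute 24 h (two-sided exact permutation test, p = 0.4, where 0.1 is the smallest possible), and 19.5% to 21.8% in PBS. The protein-coding DEGs of both directions were short genes without replicate 1, with a median length of 9677 bases for the higher and 11736 bases for the lower DEGs against 34790 bases over all coding genes tested.

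The difference between 1 h and 24 h was set against that after chronic dosing, daily for 5 days, by an interaction term. With all libraries only NR4A3 passed, 0.00562% of genes, with a difference of log2(fold changes) of 2.42 ± 0.25 (adjusted p = 0.0028). After chronic dosing NR4A3 had 32.6 ± 4.1 TPM at 1 h and 27.2 ± 4.1 TPM at 24 h (SD, 3 libraries each). Without replicate 1, 28 genes passed, 0.154%, with a larger 1 h rise after acute dosing for FOSB (3.07, adjusted p = 0.0405), NR4A1 (2.12, adjusted p = 0.0144) and DUSP1 (0.92, adjusted p = 0.011). Chronic libraries were also grown 5 days longer, per the methods of the study, so dosing and culture age cannot be told apart. Introns took 18.9% to 22.4% of reads in the chronic 1 mM libraries and 12.3% to 15.9% in the acute ones. The part of this difference was not tested.

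Against the 1 µM dose, 41 genes passed the interaction test with all libraries, 0.223%, and 65 without replicate 1, 0.344%. HEY1, a Notch and BMP target, had a log2(fold change) of 0.05 between times at 1 mM (adjusted p = 0.735) and was higher at 1 h at 1 µM (1.89, adjusted p = 6.33e-10), an interaction of -1.82 ± 0.17 (adjusted p = 1.58e-06). H2AC6, a histone gene, had 76.5, 61.4 and 63.4 TPM against 17.9, 21.9 and 18.7 TPM at 1 mM and 7.24 ± 2.47 against 11.04 ± 1.89 TPM (SD, 3 libraries each) at 1 µM. The interaction of FOSB did not pass in either fit (adjusted p = 0.692 and 0.588), with a log2(fold change) of 5.32 at 1 µM. The 2 doses were separate experiments with their own PBS libraries, so dose and experiment cannot be told apart. The acute 1 µM libraries held 5755919 to 11921298 exon reads, of which mitochondrially encoded genes took 5.07% to 12.57%. In the acute 1 mM libraries these were 13707122 to 21514125 exon reads and 0.83% to 2.61%. The part of these differences was not tested.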

How the data were processed

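RNA-seq of the 15 libraries of the 1 mM experiment was used, and of 15 of the 1 µM experiment for the dose interaction. The authors trimmed and mapped reads in CLC Genomics Workbench to GRCh38 (hg38 per the labels) and deposited, per library, read counts on exons, introns and whole genes and uniquely mapped reads for 60676 genes, with TPM computed by the authors from exon reads and exon length. The strand setting and the sequencing provider of each library were not given in the sources used here, so antisense, overlapping and near-identical genes are uncertain.

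Exon counts were tested with edgeR 4.0.16 (quasi-likelihood, TMM, filterByExpr with minimum count 10 and minimum total count 15) in R 4.3.3 over all 15 libraries, with Benjamini-Hochberg adjustment, and again without Acute 24 h replicate 1. DEGs were genes under an adjusted p of 0.05 that changed 1 log2 unit or more and reached 1 TPM in the higher group mean. Standard errors were derived from the fitted fold change and its F statistic. Scripts were tested on simulated data. Groups held 3 libraries whose separate differentiation is not stated, so p-values measure the spread between these libraries, which may be technical. Replicate counts differed by more than sampling noise.

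The members and lists were chosen with earlier results of these data known. Named genes were the 10 largest non-overlapping DEGs per direction in each fit, 9 genes of the study, up to 4 genes per list by p, receptors and markers, and the 5 smallest p of each interaction; the text gives a selection. JUN, VEGFA, CA9 and RPE65 were added after their values were seen. Promoters came from RefSeq (GRCh38.p14). Deviations of same-numbered libraries of the 2 groups from their group means had correlations of 0.037, 0.038 and -0.025. The Acute 24 h mean held replicate 1, which stood apart, so these values cannot decide whether the numbers pair libraries. DESeq2 1.42.0, other counts, filters, scalings and libraries left out were alternatives. The other 23 files were not used. A result on 1 gene is not reported here.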

Additional observations from a re-analysis of the deposited data

Results flagged for a closer look

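The difference between 1 h and 24 h was tested against that of another dosing or dose by an interaction term, and the values below are differences of log2(fold changes) that passed. Acute minus chronic dosing gave 1 gene with all libraries and 28 genes without Acute 24 h replicate 1. NR4A3, an orphan nuclear receptor, had 2.42 with all libraries and 2.61 without that replicate. Without it, the other genes of smallest p were NR4A1 at 2.12, DUSP1 at 0.92, NEDD9, a focal adhesion scaffold, at 0.64, MFSD4B at -0.91 and GFAP, an astrocytic filament, at -1.59.

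The 1 mM dose minus the 1 µM dose gave 41 genes with all libraries and 65 without replicate 1. H2AC6, a histone H2A gene, had 2.53 and 2.39 in the 2 fits, and the unnamed locus AC007906.2 had 3.12 and 2.81. Values below 0 were found for HEY1 (-1.82 and -1.76), AC021078.1 (-1.79 and -1.54), PRKCB, a protein kinase C gene (-1.33 and -1.24), and KCNJ10, a glial potassium channel (-1.72 and -2.01). Without replicate 1, ARRDC3 had 3.54, TXNIP, an inhibitor of thioredoxin, 2.83 and CITED2, a regulator of CBP and p300 binding, 1.27.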

How the results depend on the processing

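The counts of DEGs depended on which libraries shared the estimate of spread, and their causes were not tested. Leaving out 1 library at a time gave 55 to 879 DEGs (181 with all), 42 to 259 higher and 11 to 620 lower at 1 h: 60, 58 and 55 without Acute 1 h replicates 1, 2 and 3, and 257, 879 and 665 without Acute 24 h replicates 1, 2 and 3. With Acute 24 h replicate 1 already out (257 DEGs), it gave 121 to 234, 103 to 168 higher and 18 to 66 lower. Where this left 1 library at 24 h, that library was assumed to vary like the other groups. Without Acute 24 h replicate 1 the genes under the adjusted p went from 621 to 1690, those differing from chronic dosing from 1 to 28 and those differing from 1 µM from 41 to 65. Intron calls ran from 662 to 2386 (1406 with all).

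With all libraries, the DESeq2 Wald test gave 426 DEGs (259 lower), no filter on low counts 107 lower, and the 6 libraries alone 4 DEGs, 4 higher and 0 lower, and 24 genes in introns. A minimum change of 0.75 gave 280 (141 lower), and one of 2 gave 42, 31 higher and 11 lower. Without replicate 1, no filter gave 117 lower, 10 reads in every library 38 lower, a minimum of 0.75 388 (134 lower) and one of 2 51, 46 higher and 5 lower. Total gene reads gave 1286 DEGs against PBS at 1 h (730 with exon reads), 1129 at 24 h (659 with exon reads) and 106 genes differing from 1 µM, for which DESeq2 gave 573.

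Whether the numbers of the libraries pair them was not decided. The replicate block gave 119 DEGs, 34 lower, 276 genes under the adjusted p and 24 genes differing from 1 µM.

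Of the genes named for 1 h against 24 h, 694 values under alternatives kept direction and were not seen to change side of the threshold. A further 89 lost significance, 14 gained it and 19 turned direction. The 694 include values without an adjusted p, such as EGR2 and ZFP36 in the DESeq2 Wald test. Whether those kept their side of the threshold is not known. DUSP10 turned to 0.11 with total and 0.016 with unique reads and 0.16 under the replicate block, and DRD1 to 0.16 under the block. Leaving out single libraries, the log2(fold change) ran from -1.50 to 0.93 for JUN, -0.50 to 1.38 for DUSP10, -0.44 to 1.18 for DRD1, -0.63 to 0.57 for MYC, -0.50 to 0.041 for ETS2, -0.61 to 0.13 for VEGFA, -0.10 to 0.35 for DUSP14, -0.0018 to 0.12 for HEY1, -0.095 to 0.77 for CA9, -1.09 to 0.16 for MMP1 and -0.32 to 1.05 for FOSL1. Genes on few reads, such as EGR4 and TLR9, are limited by depth.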

Other observations

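Histone genes, which encode the proteins that package DNA, formed a further group, chosen after its values were seen and so given as a description. Of 78 histone genes found by symbol, 37 were tested between Acute 1 h and Acute 24 h, and 10 were higher and 0 lower at 1 h. Without Acute 24 h replicate 1, 40 were tested, and 17 were higher and 0 lower. Of all genes tested, 1.38% and 4.08% were higher. The median log2(fold change) was 0.97 and 0.92 in the 2 fits. Between the same times it was 0.71 after chronic 1 mM dosing and -0.09 after acute 1 µM dosing. H3-3B, a replication-independent histone H3 gene, had 1431, 1340 and 1414 TPM at 1 h and 576, 696 and 711 TPM at 24 h, with 723 to 834 TPM in PBS. It rose in both fits (edgeR quasi-likelihood test, adjusted p = 0.000427 and 4.72e-06), and its groups did not overlap. H2BC8, an H2B gene, had 23.5, 15.2 and 17.8 TPM against 8.96, 5.78 and 6.21 TPM and also rose in both (adjusted p = 0.00605 and 0.000943). H2BC5 had 78.6, 66.6 and 75.4 TPM against 180, 38.1 and 25.1 TPM, with replicate 1 above every 1 h library, and passed only without it (adjusted p = 0.866 and 0.00389). Histone genes hold near-identical copies, so the split of reads between them is uncertain.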
